A study of Mus musculus with 15 samples.

Results

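The genes described here act in vascular tone, blood coagulation and fibrinolysis, and they are Nos3, Vwf, Thbd, Procr, Tfpi, Plat, Plau, F3 and F8. They were listed by name for their functions, with earlier results of these data known, as 9 of the 53465 genes in the table, and all 9 passed the filter of a mean of at least 5 normalized counts that left 25549 genes. RNA was sequenced from 3 populations of cells sorted out of tumors of B16-F0, a melanoma line from mice, 15 days after the tumor cells were injected. The populations were endovascular progenitors (EVP, CD31lo VEGFR2lo), transit amplifying cells (TA, CD31int VEGFR2lo) and definitive differentiated cells (D, CD31hi VEGFR2hi), with 5 libraries each. All hosts were CAG-GFP transgenic mice of both sexes, 8 to 14 weeks old, and every sorted cell was GFP+, CD34+ and negative for lineage markers. The CAG promoter is active in nearly all cells, so that GFP separates host cells from tumor cells and does not mark endothelium. The labels number the libraries of a population 1 to 5 and do not say whether each came from its own animal, so that p-values measure the spread between these libraries, which may in part be technical.

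Blood vessels keep blood fluid and start clotting only on injury, and the endothelium carries much of the machinery for both. Tissue factor, encoded by F3, starts coagulation when blood meets cells around the vessel. Thrombomodulin, the protein C receptor and tissue factor pathway inhibitor hold the cascade back, plasminogen activators dissolve fibrin, von Willebrand factor catches platelets and carries factor VIII, and nitric oxide made by endothelial nitric oxide synthase relaxes the vessel wall. Outside endothelium, tissue factor and plasminogen activators are also made by fibroblasts and other stromal cells, and von Willebrand factor is stored in platelets too.

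The libraries held between 5394356 and 26513073 reads on genes (median 19049194). In 6 libraries (EVP 1 and 2, TA 1 to 3 and D 1), 57.8% to 98.3% of olfactory receptor genes had a read, against 2.89% to 24.1% in the other 9, and in replicate 1 of every population 8.5% to 10.6% of the reads fell on the single gene Gm10800. The 14 endothelial marker genes summed to 4119 to 7849 normalized counts in EVP, 10097 to 82918 in TA and 114675 to 186685 in D, and in D 13 of the 14 exceeded EVP. The 10 fibroblast markers summed to 863257 to 1551220 in EVP, 196598 to 619562 in TA and 1145 to 4261 in D, and all 10 were higher in EVP than in D. No gene of either list was at or under 3 reads in every library of a population. The EVP libraries therefore held little RNA of the endothelial markers and much of the fibroblast markers, although the hierarchy is named endothelial. The paper bases that name on lineage tracing from Cdh5 and from Sox18 in other mice. With Cdh5, nearly all CD34+ lineage-negative tumor cells were labeled, also when tumor cells were injected after a waiting period. At later days the traced cells of both kinds formed vessels with arterial or venous markers. The paper also describes active mesenchymal genes in EVP cells. EVP is used below for the sort gate. In bulk RNA, fewer cells of a type and less RNA per cell cannot be told apart. The marker sums move with several members, and their part in the results was not tested, other than by leaving out libraries.

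Stretches in front of the genes are shown for 3 members with different patterns, described below: F3, higher in EVP; Procr, higher in D; and Tfpi, which passed the threshold in no comparison. They are from RefSeq (GRCm38.p6), whose promoter table held 4 of the 9 members, and run 5′ to 3′ on the strand of the gene up to the first base of the gene in the annotation of the files. The stretches are chr3:121723287-121723536 (F3, plus strand), chr2:155750967-155751116 (Procr, plus strand) and chr2:84476776-84477009 (Tfpi, minus strand). Capitals mark matches on either strand to any of 7 short motifs searched, which were AGGAAG for ETS factors, CACCC for KLF factors, AGATAA for GATA factors, TGANTCA for AP-1, GGGCGG for the GC box, ACAAAG for SOX factors and TAAACA for FOX factors.
F3: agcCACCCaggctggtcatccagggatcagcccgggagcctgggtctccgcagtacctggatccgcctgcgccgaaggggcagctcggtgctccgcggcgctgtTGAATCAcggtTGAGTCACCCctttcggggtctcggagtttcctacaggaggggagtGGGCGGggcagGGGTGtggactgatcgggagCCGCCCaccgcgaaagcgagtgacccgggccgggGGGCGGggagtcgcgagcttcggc
Procr: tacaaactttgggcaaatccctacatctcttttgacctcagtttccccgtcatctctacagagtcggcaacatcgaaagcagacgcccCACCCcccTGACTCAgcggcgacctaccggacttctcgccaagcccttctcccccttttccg
Tfpi: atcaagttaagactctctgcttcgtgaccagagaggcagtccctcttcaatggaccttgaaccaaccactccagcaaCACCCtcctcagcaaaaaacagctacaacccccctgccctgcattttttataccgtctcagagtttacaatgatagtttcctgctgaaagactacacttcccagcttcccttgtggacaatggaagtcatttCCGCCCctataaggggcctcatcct
In the 250 bases before the RefSeq start, F3 held 3 KLF, 2 AP-1 and 3 GC box matches, and 1 AP-1 match shared 2 bases with a KLF match. Procr held 1 KLF and 1 AP-1 match, 162 and 154 bases before the start. Tfpi held 1 KLF and 1 GC box match before the first of its 2 listed starts, and 2 ETS, 1 KLF, 1 GATA and 1 GC box match before the other. Of all 32851 promoters of this length, 52.0% held a KLF match, 32.7% a GC box match and 6.75% an AP-1 match, beside 29.5% for ETS and 9.99% for GATA. F8 held no match. A match is a run of letters and not evidence of a bound factor.

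Between the outer populations, the members fell into 3 sets of equal size. Nos3, Vwf and Procr were higher in D, F3, Plat and Thbd were higher in EVP, and Tfpi, Plau and F8 did not pass the test. Thus 6 of 9 members were called between EVP and D (limma, adjusted p under 0.05 over all genes), where 19.0% of all genes tested were called, 11.6% higher in EVP and 7.46% higher in D. The libraries of EVP and D did not overlap for 5 of the members, against 17.7% of all genes. Between EVP and TA, 3 of 9 were called, with Thbd and Plat higher in EVP and Nos3 higher in TA, beside 3.50% of all genes (of which 1.56% in the direction of EVP and 1.94% in that of TA). The libraries overlapped for all 9, while those of 4.29% of all genes did not. Between TA and D, 5 of 9 were called, with F3 and Plat higher in TA and Nos3, Vwf and Procr higher in D, beside 12.5% of all genes (8.21% higher in TA and 4.31% higher in D), and the libraries of 3 did not overlap, against 9.25% of all genes. The median log2 fold change of the members was 0.09, 0.13 and -0.20 in the 3 comparisons in that order, and that of all genes 0.46, 0.09 and 0.24. The members were listed for their functions and differ in direction, so these medians lie close to 0 while their median size without sign was 1.23, 1.26 and 0.93, against 0.75, 0.50 and 0.66 for all genes. The comparisons share populations and are not independent of each other.

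**Figure D1:**
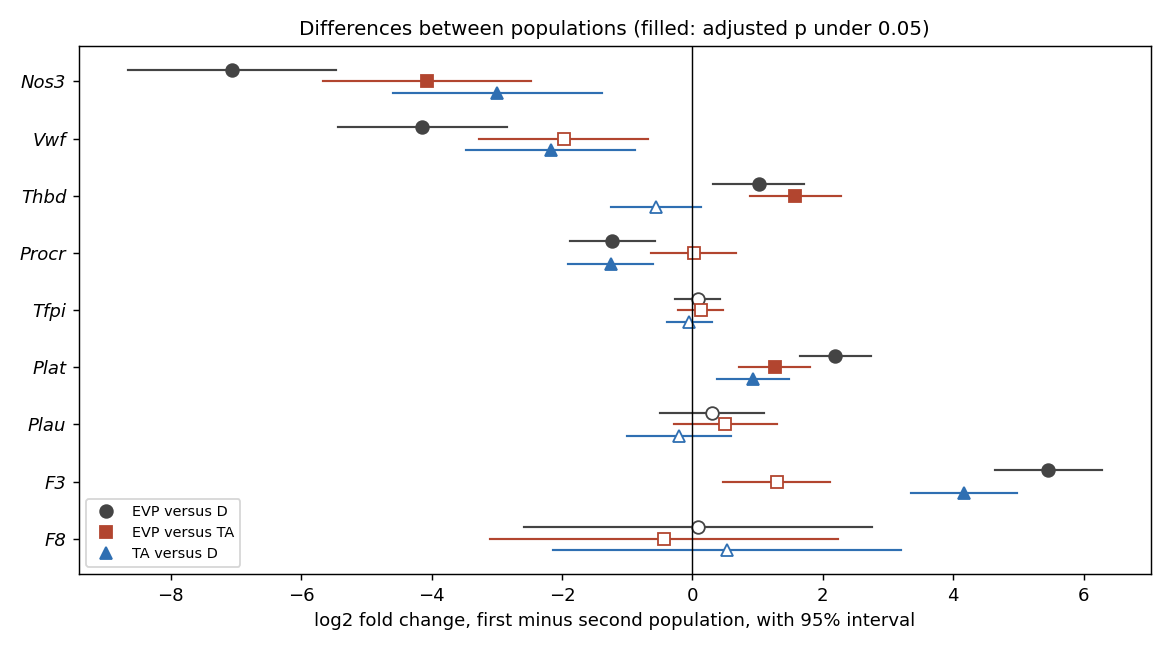
Log2 fold change of each member (x axis, first minus second population, on the scale of log2(normalized count + 1)) with its 95% interval from limma, for EVP versus D (circles), EVP versus TA (squares) and TA versus D (triangles). Filled symbols passed an adjusted p of 0.05. Nos3 lies farthest to the left at -7.06 and F3 farthest to the right at 5.46, both for EVP versus D, while every interval of Tfpi, Plau and F8 crosses 0.

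Nos3 encodes endothelial nitric oxide synthase, the enzyme that makes the vasodilator nitric oxide in vessel walls (ENSMUSG00000028978, chr5:24364810-24384474, plus strand). It was measured at 35.1, 3.92, 9.0, 30.4 and 58.8 normalized counts in EVP libraries 1 to 5. In TA it was 1805, 353, 308, 469 and 47.3. In D it was 2906, 3012, 2175, 3263 and 2286. Every D library lay above every TA library, and TA library 5 fell within the EVP range while the other TA libraries lay above it. The mean was 2728 ± 474 in D, 596 ± 693 in TA and 27.4 ± 22 in EVP (SD, n = 5 each), so that D was 99.4-fold above EVP and 4.57-fold above TA. In limma the log2 fold change was -7.06 ± 0.76 (SE) for EVP versus D (adjusted p = 2.07e-06), -4.07 ± 0.76 for EVP versus TA (adjusted p = 0.0067) and -2.99 ± 0.76 for TA versus D (adjusted p = 0.0132). The low EVP values rest on few reads, from 3 in library 2 to 85 in library 5, and 3 reads were taken as the limit of detection. The call between EVP and TA was lost without replicate 1 of every population and without the 6 libraries rich in olfactory receptor reads (adjusted p up to 0.511). Of TA, the latter fit kept only libraries 4 and 5. Between TA and D the edgeR quasi-likelihood test gave an adjusted p of 0.0507. Of the exon bases of Nos3, 7.12% are shared with Atg9b and 25.2% with the antisense gene Gm15587, both on the opposite strand. The library kit does not mark strand, so reads there cannot be assigned to 1 gene. The means in EVP, TA and D were 37.5, 56.8 and 108 normalized counts for Atg9b, above Nos3 itself in EVP, and 3.77, 15.8 and 24.7 for Gm15587, in the same order of populations as Nos3. The part of the shared bases in the Nos3 values was not tested.

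Vwf encodes von Willebrand factor, which tethers platelets to a damaged wall and carries factor VIII in plasma (ENSMUSG00000001930, chr6:125546774-125686679, plus strand). In EVP it was 126, 10.5, 30.3, 32.0 and 55.3 normalized counts in libraries 1 to 5. TA gave 326, 145, 99.3, 257 and 62.3, and D gave 317, 1355, 925, 1093 and 333. D libraries 2, 3 and 4 stood well above the rest, while D libraries 1 and 5 were close to TA library 1, which lay between them, so that D was above EVP without overlap and overlapped TA. D had a mean of 805 ± 464, 15.8-fold that of EVP (50.9 ± 45.1) and 4.52-fold that of TA (178 ± 110). The limma log2 fold change was -4.14 ± 0.61 for EVP versus D (adjusted p = 7.01e-05) and -2.17 ± 0.61 for TA versus D (adjusted p = 0.0258). For EVP versus TA it was -1.97 (95% interval -3.27 to -0.67), which did not pass (adjusted p = 0.0926) but did in 4 of 28 alternatives, with DESeq2, with quantile normalization, without EVP 1 and without TA 5 (adjusted p down to 0.0292). The TA to D call was lost in 6 of 28 alternatives, when TA 3, TA 5, D 2, D 3 or D 4 was left out, and without the 6 libraries (adjusted p up to 0.0788). Platelet and megakaryocyte markers summed to 450 to 695 normalized counts in EVP, 779 to 3402 in TA and 562 to 924 in D over 10 genes, of which 3 were at or under 3 reads in every EVP library. Of that list, 3 genes were called higher in D against EVP and 0 higher in EVP, and its part in the Vwf values was not tested.

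F8 encodes factor VIII, the cofactor that speeds activation of factor X, made chiefly by endothelial cells of the liver and some other organs (ENSMUSG00000031196, chrX:75172715-75382615, minus strand). Its values were 260, 18.3, 5.73, 20.8 and 6.22 normalized counts in EVP, from 74, 14, 7, 26 and 9 reads. They were 172, 7.03, 79.2, 7.84 and 23.7 in TA, from 100, 8, 71, 10 and 38 reads. In D they were 125, 32.7, 0, 21.0 and 40.5, from 91, 40, 0, 28 and 67 reads. Replicate 1 was highest in every population and TA library 3 came next after these, all among the 6 libraries in which over 50% of olfactory receptor genes had a read, and all 3 populations overlapped. A count of 0 in D library 3 allows up to 2.34 normalized counts at the limit of 3 reads. No difference was detectable, with a log2 fold change of 0.09 for EVP versus D and a 95% interval from -2.58 to 2.76 (limma, adjusted p = 0.971), and the sign turned in 8 of 28 alternatives, to -0.80 without EVP library 1 and to -1.0 without D library 3. For EVP versus TA the value was -0.44 (-3.11 to 2.23) and for TA versus D 0.53 (-2.14 to 3.20). F8 lies over 3 other genes but shares no exon base with them.

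**Figure D2:**
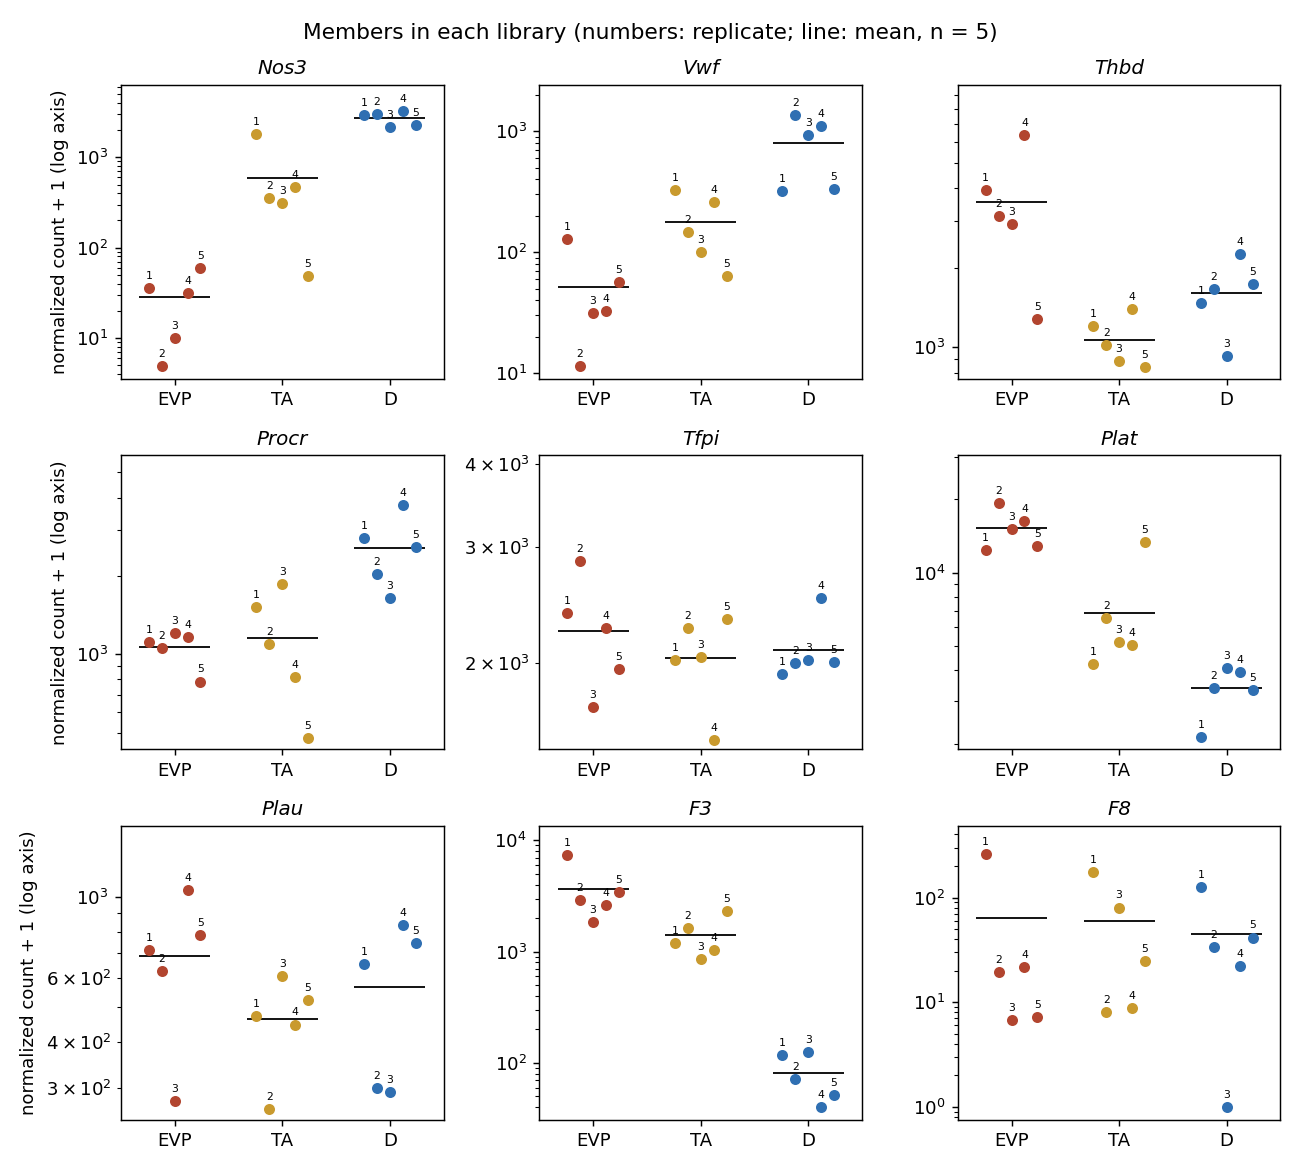
Normalized count + 1 (y axis, log scale, a different range in each panel) of each member in the 15 libraries, by population (x axis), with the replicate number above each point and a line at the mean of 5. Nos3, Vwf and Procr are highest in D, F3 and Plat fall from EVP to D, and F8 is highest in replicate 1 of every population.

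The 3 anticoagulant members did not move together. Thbd encodes thrombomodulin, which turns thrombin from a clotting enzyme into an activator of protein C (ENSMUSG00000074743, chr2:148404466-148408188, minus strand). It was 3939, 3146, 2934, 6357 and 1279 normalized counts in EVP libraries 1 to 5, 1201, 1014, 882, 1391 and 839 in TA, and 1470, 1656, 922, 2243 and 1727 in D. Apart from EVP library 5, every EVP library was above every TA and D library, and TA and D overlapped. The mean of 3531 ± 1853 in EVP was 3.31-fold that of TA (1065 ± 230) and 2.20-fold that of D (1603 ± 477). The limma log2 fold change was 1.58 ± 0.33 for EVP versus TA (adjusted p = 0.0132) and 1.02 ± 0.33 for EVP versus D (adjusted p = 0.0383), and for TA versus D it was -0.56 (-1.25 to 0.14, adjusted p = 0.356). The EVP to D call was lost in 13 of 28 alternatives, with adjusted p up to 0.377, and without single libraries its log2 fold change ranged from 0.76 to 1.34. It was lost when any of EVP 1 to 4 or D 1, 2, 3 or 5 was left out, and the EVP to TA call was lost in 3 of 28.

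Procr encodes the endothelial protein C receptor, which presents protein C to the thrombin and thrombomodulin complex (ENSMUSG00000027611, chr2:155751117-155755471, plus strand). In EVP it was 1117, 1054, 1207, 1161 and 785 normalized counts. TA libraries 1 to 5 had 1515, 1090, 1865, 813 and 478, and D libraries had 2808, 2031, 1638, 3743 and 2593. Every D library exceeded every EVP library, and TA library 3 lay above D library 3. D had a mean of 2562 ± 805, 2.41-fold that of EVP (1065 ± 166) and 2.22-fold that of TA (1152 ± 551). The log2 fold change was -1.23 ± 0.31 for EVP versus D (limma, adjusted p = 0.00809) and -1.25 ± 0.31 for TA versus D (limma, adjusted p = 0.0114). EVP and TA differed by 0.02 on the log2 scale (-0.63 to 0.67), with TA spread over 3.90-fold from lowest to highest and EVP over 1.54-fold. The TA to D call held in all 28 alternatives, and the EVP to D call missed the threshold only without replicate 1 of every population (adjusted p = 0.0502).

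Tfpi encodes tissue factor pathway inhibitor, which shuts down the complex of tissue factor and factor VIIa (ENSMUSG00000027082, chr2:84432855-84476775, minus strand). Its libraries had 2384, 2856, 1718, 2260 and 1961 normalized counts in EVP, 2020, 2259, 2041, 1529 and 2335 in TA, and 1923, 2002, 2019, 2508 and 2010 in D. All 3 populations overlapped, and the 15 libraries spanned only the range from TA library 4 to EVP library 2. The means were 2236 ± 433, 2037 ± 315 and 2093 ± 236. Its log2 fold changes were the smallest in size of all the members between EVP and D and between TA and D, at 0.08 (-0.26 to 0.43, limma, adjusted p = 0.814) for EVP versus D, 0.13 (-0.22 to 0.47) for EVP versus TA and -0.05 (-0.39 to 0.30) for TA versus D. These intervals leave room for a difference of at most 0.47 on the log2 scale in either direction.

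F3 encodes tissue factor, the membrane receptor that starts coagulation by binding factor VIIa (ENSMUSG00000028128, chr3:121723537-121735048, plus strand). It was 7422, 2938, 1841, 2599 and 3428 normalized counts in EVP libraries 1 to 5. In TA it was 1205, 1642, 850, 1041 and 2302, and in D it was 117, 71.0, 124, 39.1 and 50.2. Every TA and EVP library lay above every D library, and TA library 5 lay above EVP library 3, so that EVP and TA overlapped. EVP had a mean of 3646 ± 2189, 45.5-fold that of D (80.1 ± 38.4), and TA had a mean of 1408 ± 579, 17.6-fold that of D. The log2 fold change was 5.46 ± 0.39 for EVP versus D (limma, adjusted p = 1.88e-08) and 4.17 ± 0.39 for TA versus D (limma, adjusted p = 1.21e-06), and both calls held in all 28 alternatives. Between EVP and TA it was 1.29 (0.48 to 2.11), which did not pass (adjusted p = 0.0793) but did with DESeq2 and without TA library 5. The fibroblast marker sum had the same order of populations, with EVP above TA and TA above D. Within populations the order was not kept throughout. EVP library 1 and D library 3 had the highest F3 and the lowest fibroblast sum of their populations (863257 and 1145). TA library 5 was highest of TA in both (619562). The relation between F3 and these markers was not tested.

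Plat encodes tissue-type plasminogen activator, which turns plasminogen into the fibrin-cutting enzyme plasmin on the clot (ENSMUSG00000031538, chr8:22757727-22782844, plus strand). In EVP it was 12419, 19378, 15121, 16353 and 12892 normalized counts. In TA it was 4223, 6532, 5214, 5065 and 13332, and in D 2117, 3384, 4091, 3924 and 3324. TA library 5 lay within the EVP range, and the other TA libraries lay between EVP and D without touching either. The mean was 15233 ± 2822 in EVP, 2.22-fold that of TA (6873 ± 3704) and 4.52-fold that of D (3368 ± 775). The log2 fold change was 2.19 ± 0.26 for EVP versus D (limma, adjusted p = 6.52e-06), 1.26 ± 0.26 for EVP versus TA (limma, adjusted p = 0.0123) and 0.93 ± 0.26 for TA versus D (limma, adjusted p = 0.0239). The EVP to D call held in all 28 alternatives. The other calls were lost in 3 alternatives for EVP versus TA and 4 for TA versus D, edgeR and the leaving out of the 6 libraries among them in both.

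Plau encodes urokinase-type plasminogen activator, which acts at cell surfaces through the receptor Plaur (ENSMUSG00000021822, chr14:20836660-20843385, plus strand). EVP libraries had 713, 623, 276, 1039 and 785 normalized counts, TA libraries 471, 262, 607, 446 and 520, and D libraries 653, 298, 291, 834 and 745. The populations overlapped throughout, and each held 1 or 2 libraries under 300. The means were 687 ± 277 in EVP, 461 ± 127 in TA and 564 ± 254 in D. No comparison passed, with log2 fold changes of 0.30 (-0.49 to 1.09, limma, adjusted p = 0.709), 0.50 (-0.29 to 1.3, adjusted p = 0.627) and -0.20 (-1.0 to 0.59, adjusted p = 0.826) for EVP versus D, EVP versus TA and TA versus D.

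To compare levels between genes, normalized counts were divided by exon length in kb. This length joins the exons of all annotated transcripts of a gene and can exceed that of the transcript made. Orders, shares and ratios between genes depend on it, while comparisons of 1 gene between populations do not. In EVP the order of mean levels per kb was Plat (2441 ± 452), F3 (1443 ± 866), Thbd (948 ± 498), Procr (524 ± 82.0), Tfpi (409 ± 79.3), Plau (290 ± 117), Nos3 (6.64 ± 5.33), F8 (6.28 ± 11.2) and Vwf (3.17 ± 2.81). Neighbors in that order overlapped in their libraries except at the step from Plau to Nos3. The place of F8 above Vwf rested on EVP library 1, without which the means were 1.29 ± 0.797 for F8 and 1.99 ± 1.14 for Vwf (n = 4). In TA the order was Plat (1101 ± 594), Procr (567 ± 271), F3 (557 ± 229), Tfpi (373 ± 57.6), Thbd (286 ± 61.8), Plau (195 ± 53.8), Nos3 (144 ± 168), Vwf (11.1 ± 6.87) and F8 (5.86 ± 7.11), and every neighboring pair overlapped. Without TA library 1 the mean of Nos3 was 71.2 ± 43.1 and that of F8 2.97 ± 3.44 (n = 4). D had another order, with Procr (1262 ± 396), Nos3 (660 ± 115), Plat (540 ± 124), Thbd (431 ± 128), Tfpi (383 ± 43.1), Plau (238 ± 107), Vwf (50.1 ± 28.9), F3 (31.7 ± 15.2) and F8 (4.42 ± 4.83), where Procr and Nos3, Plau and Vwf, and F3 and F8 did not overlap. Without D library 1 the mean of F8 was 2.38 ± 1.78 (n = 4). F3 thus stood second of 9 in EVP and eighth in D, and Nos3 seventh in EVP and second in D. As a share of the summed level per kb of all 9 members, Plat made up 41.1% ± 8.84 in EVP and 15.5% ± 4.97 in D, Procr 8.79% ± 1.81 and 34.5% ± 4.95, Nos3 0.115% ± 0.108 and 18.5% ± 2.55, and F3 23.2% ± 10.9 and 0.952% ± 0.566 (SD, n = 5).

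**Figure D3:**
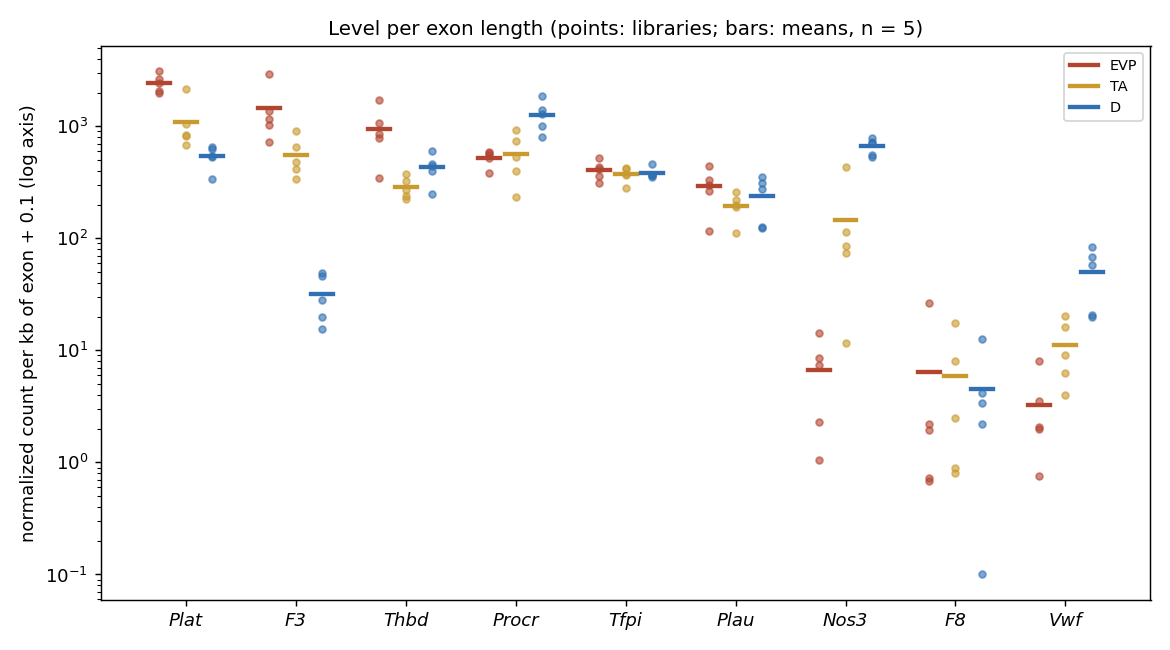
Normalized count per kb of exon + 0.1 (y axis, log scale) of each member, with points for libraries and bars for the means of EVP, TA and D (n = 5 each). Genes are ordered by their mean in EVP. Tfpi stays near 400 in all 3 populations, while F3 drops from 1443 in EVP to 31.7 in D and Nos3 climbs from 6.64 to 660.

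Ratios within a library do not depend on how the libraries were scaled, but whether a ratio exceeds 1 depends on the exon lengths used. F3 to Tfpi, the starter of coagulation against its inhibitor, was 2.22 to 6.73 per length in EVP (median 2.49), 0.901 to 2.13 in TA (median 1.47) and 0.0337 to 0.132 in D (median 0.0767). The ratio was over 1 in 5 of 5 EVP, 4 of 5 TA and 0 of 5 D libraries. The EVP and TA ratios did not overlap, although F3 itself overlapped between them. Thbd to Procr, the partners in protein C activation, was 0.889 to 2.99 in EVP (median 1.63), 0.258 to 0.959 in TA (median 0.507) and 0.286 to 0.445 in D (median 0.327). Only EVP libraries were above 1, all except library 5, and the TA ratios covered the whole D range. Plat to Plau was 5.97 to 20.8 in EVP (median 6.61), 3.26 to 9.72 in TA (median 4.31) and 1.23 to 5.34 in D (median 1.78), above 1 in every library, with D libraries 2 and 3 within the TA range. These pairs were listed for their functions, and their ratios were not tested.

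**Figure D4:**
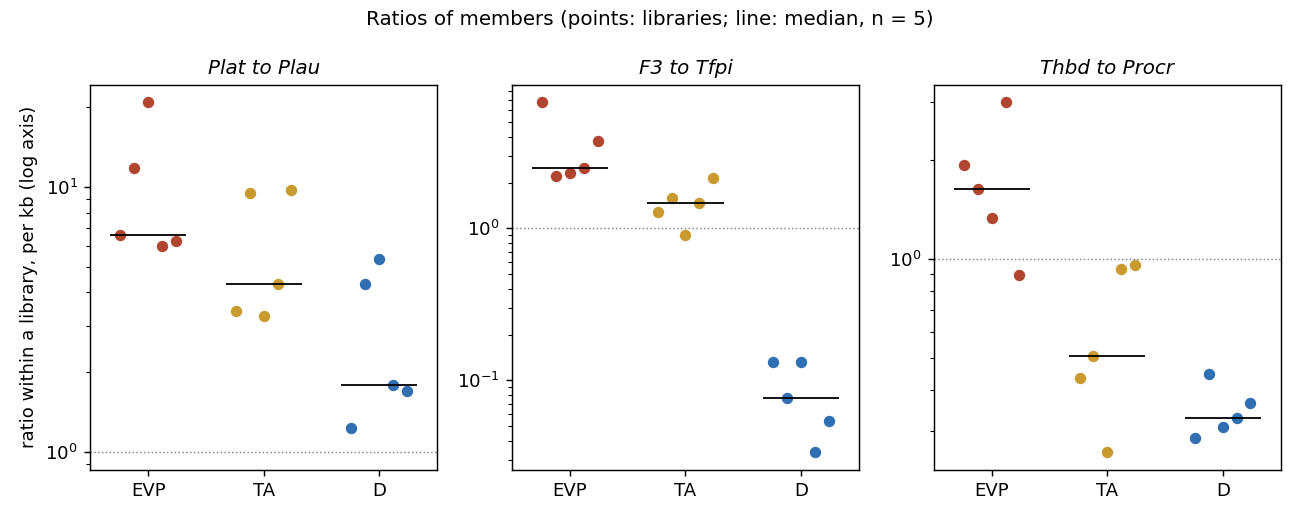
Ratio of 2 members within each library, per kb of exon (y axis, log scale), for Plat to Plau, F3 to Tfpi and Thbd to Procr by population, with a line at the median of 5 and a dotted line at 1. F3 to Tfpi lies at 2.22 or more in EVP and at 0.132 or less in D.

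The TA libraries differed among themselves more than those of EVP or D in Nos3, Procr and Plat. On a log2 scale on which the EVP mean is 0 and the D mean is 1, the TA mean lay at 0.577 for Nos3, 0.475 for Vwf, 0.575 for Plat and 0.237 for F3, and at -0.0186 for Procr. Thbd lay outside the range of the outer populations at 1.55. TA library 5 was nearest to EVP for Nos3 (0.179), Vwf (0.173), Plat (0.0788) and F3 (0.0904), and TA library 1 was nearest to D for Nos3 (0.918), Vwf (0.745) and Plat (0.835) but not for F3 (0.261). TA library 5 had the lowest endothelial marker sum of the TA libraries (10097) and the highest fibroblast (619562) and mural (153067) sums, and TA library 1 had the highest endothelial (82918) and the lowest fibroblast sum (196598). Pecam1, which encodes the CD31 of the gate, was 372 in TA library 5 and 15414 in TA library 1. The part of these differences in the members' values was not tested.

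**Figure D5:**
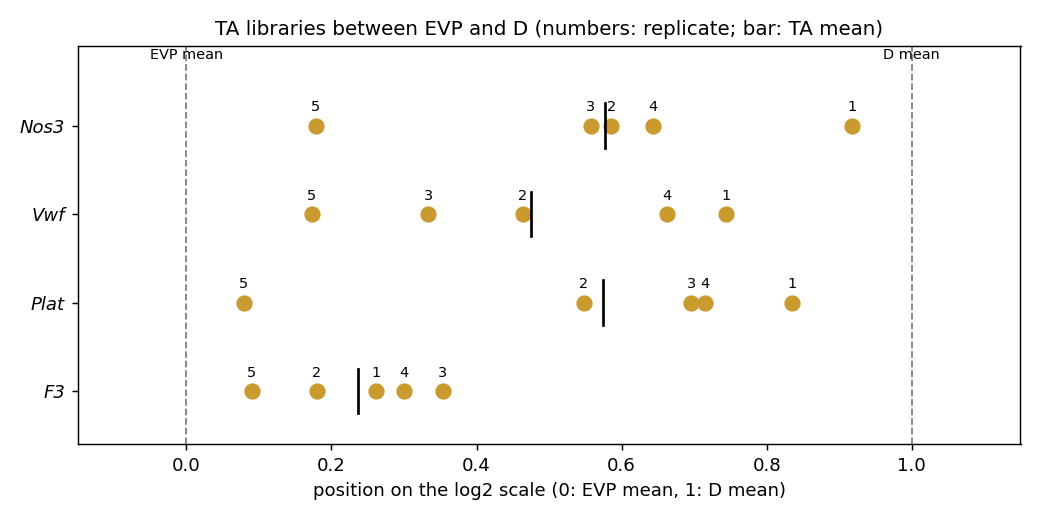
Position of each TA library (points, with replicate numbers) for Nos3, Vwf, Plat and F3 on the log2 scale between the EVP mean (0) and the D mean (1), with a bar at the TA mean. Library 5 is the lowest for all 4 genes, at 0.179 or less.

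The other genes of each function were taken from lists that do not hold the members, drawn up with earlier results of these data known. The counts of each list are given with the share of all genes called in the same direction. Of 36 vascular tone genes tested, 12 were higher in EVP and 9 higher in D (11.6% and 7.46% of all genes), with a median log2 fold change of 0.78 against 0.46 for all genes. Those higher in EVP were led by Ptgis, which encodes prostacyclin synthase (2020 ± 555 in EVP, 20.6 ± 31.5 in D, log2 fold change 8.14), and by the angiotensin receptor genes Agtr2 (7.38) and Agtr1a (5.49). Higher in D were Ednrb, an endothelin receptor gene (347 ± 261 in EVP, 22508 ± 6350.2 in D, log2 fold change -6.29), the potassium channel gene Kcnj2 (-4.13) and Nostrin, whose product binds endothelial nitric oxide synthase and steers its traffic in the cell (405 ± 145 in EVP, 1741 ± 343 in TA, 4676 ± 1005 in D, log2 fold change -3.56). These 6 calls held in all 28 alternatives. Nostrin thus had the same order of populations as Nos3, without overlap between EVP and TA (-2.14, limma, adjusted p = 0.00022), where Nos3 overlapped. In EVP against TA, 2 of the 36 were higher in EVP, the natriuretic peptide receptor gene Npr1 (1.77) and Ace, angiotensin-converting enzyme (1.64), and 2 higher in TA, Nostrin and Ednrb (-3.81), beside 1.56% and 1.94% of all genes. Npr1 lost this call in 9 of 28 alternatives, Ace in 6, Ednrb in 2 and Nostrin in 1. In TA against D, 11 were higher in TA and 10 in D (8.21% and 4.31% of all genes). Those in TA were led by Ptgis (6.10), Gucy1a3, a subunit of the nitric oxide receptor (4.87), and Agtr1a (4.73). Those in D were led by Ednrb (-2.48), Npr1 (-1.96) and Edn1, the gene of endothelin 1 (-1.94). Ptgis kept its call in all 28 alternatives, and each of the others named lost it in 1.

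Of 26 coagulation factor and thrombin receptor genes tested, 6 were higher in EVP, 4 higher in D and 16 not called (11.6% and 7.46% of all genes were higher in EVP and in D), with a median log2 fold change of 0.38. F2rl1, a receptor cut by the tissue factor and factor VIIa complex, was 467 ± 125 in EVP, 238 ± 103 in TA and 28.9 ± 20.8 in D (4.19 on the log2 scale for EVP against D), and so was highest in the same population as F3. Vkorc1, which recycles the vitamin K that clotting factors need, was 834 ± 72.2 in EVP and 214 ± 43.7 in D (1.98). F5, which encodes factor V, was low at 91.5 ± 82.9 in EVP and 15.5 ± 24.2 in D (3.37), and lost its call in 7 of 28 alternatives. Higher in D were Mmrn2, an extracellular matrix gene of endothelium that is also among the endothelial markers (125 ± 107 in EVP, 10377 ± 2867 in D, -6.83), Mmrn1, whose product binds factor V (-5.11), and the thrombin receptor gene F2rl3 (28.7 ± 27.8 in EVP, 469 ± 101 in D, -4.54). The libraries overlapped for Mmrn1, and its call was lost in 2 of 28 alternatives. In EVP against TA, 3 were higher in EVP and 1 in TA (1.56% and 1.94% of all genes). These 3 were Vkorc1 (1.23), Mcfd2 (0.64) and Lman1 (0.59), and the products of the latter pair carry factors V and VIII out of the endoplasmic reticulum. Mcfd2 lost the call in 12 of 28 alternatives, Lman1 in 16 and Vkorc1 in 2. Mmrn2 was the gene higher in TA (-3.98, lost in 3 of 28). In TA against D, 2 were higher in TA, F5 (3.75, lost in 3 of 28) and F2rl1 (3.15), and Mmrn2 was higher in D (-2.85, lost in 3 of 28). These 2 and 1 of 26 stand beside 8.21% and 4.31% of all genes.

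Of 12 genes tested from the anticoagulant list, 3 were higher in EVP, 2 higher in D and 7 not called (11.6% and 7.46% of all genes). Their median log2 fold change was 0.53. Serpine2, a thrombin inhibitor of the cell surface, was 5569.6 ± 2583 in EVP and 230 ± 75.8 in D (4.55). Gas6, counted in this list as a relative of protein S, was 3164 ± 2498 and 399 ± 162 (2.75). Pros1, protein S itself, the cofactor of activated protein C, was 7679 ± 2338 and 3695 ± 320 (1.01). Higher in D were Nt5e (118 ± 58.6 in EVP, 2202 ± 268 in D, -4.40) and Entpd1 (627 ± 449 and 5090 ± 952, -3.28), whose products break down extracellular nucleotides. All 5 calls held in all 28 alternatives. In EVP against TA, Pros1 alone was called, higher in EVP as were 1.56% of all genes (0.77, limma, adjusted p = 0.0492), and lost the call in 20 of 28 alternatives. In TA against D, 3 were higher in TA and 2 higher in D, beside 8.21% and 4.31% of all genes. Those higher in TA were Adtrp, a regulator of the Tfpi product (4.11, lost in 17 of 28), Serpine2 (3.82) and Gas6 (2.04, lost in 1). Those higher in D were Nt5e (-2.43, lost in 6 of 28) and Entpd1 (-2.05, lost in 1).

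Of 12 fibrinolysis genes tested, 4 were higher in EVP, 1 higher in D and 7 not called (11.6% and 7.46% of all genes), with a median log2 fold change of 0.75. Among those higher in EVP, Serpinb2, plasminogen activator inhibitor type 2, was 18179 ± 13931 in EVP, 7637 ± 4140.3 in TA and 38.3 ± 60.5 in D (10.62 between EVP and D). Lrp1, a receptor that clears activators bound to their inhibitors, was 8347 ± 2386 in EVP and 192 ± 42.7 in D (5.41). Plaur, the receptor of the Plau product, was the gene higher in D, at 2105 ± 591 in EVP, 3359 ± 1524 in TA and 8437 ± 856 in D (-2.04, limma, adjusted p = 2.62e-05), while Plau did not pass the test. Between EVP and TA, Lrp1 (1.68, lost in 1 of 28 alternatives) was higher in EVP. Between TA and D, Serpinb2 (9.5) and Lrp1 (3.73) were higher in TA and Plaur (-1.46) higher in D.

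For each member, the 3 genes with the most similar log2 values over the 15 libraries were found among 17587 genes. The libraries form 3 populations and differ in depth, so that the coefficients describe these libraries only. A gene that differs strongly between the populations has many close matches. Nos3 was closest to Cdh5 (Pearson r = 0.990), Mmrn2 (0.988) and Kcnq1 (0.987), where Cdh5 encodes the cadherin of endothelial junctions. F3 was closest to Cpxm1 (0.980), Loxl1 (0.975) and Emx2 (0.974), where Loxl1 encodes an enzyme that crosslinks elastin. Plat was closest to Adam9 (0.972), Osmr (0.966) and Rab23 (0.966). Vwf was closest to Itpkb (0.949), Arrb1 (0.940) and Magix (0.939), Procr to Ramp2 (0.916), Hoxb7 (0.901) and Clu (0.900), and Thbd to Heg1 (0.904), Ace (0.886) and Ghr (0.869). Of the members that passed the test in no comparison, Plau was closest to Ifnar2 (0.882), Alg12 (0.839) and Nadk (0.822), F8 to Emc1 (0.897), Lrrc19 (0.868) and Fer1l6 (0.866), and Tfpi to Sppl2a (0.789), Tfpi2 (0.788) and Tcf23 (0.751). Tfpi2 encodes a related inhibitor of proteases.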

How the data were processed

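RNA was sequenced from 15 libraries, 5 each of EVP, TA and D cells. The authors prepared them with a modified Smart-Seq2 protocol and Nextera XT, aligned paired reads with STAR 2.5.3a to GRCm38 with Ensembl release 91, counted them with HTSeq-count 0.6.1 and normalized them with DESeq2 1.10.1. The deposited values are signal values, counts divided by 1 size factor per library by the authors. Division by the smallest value above 0 gave whole numbers for 100% of values (tolerance 1e-06), so reads were recovered. The deposited tables of the authors' own comparisons (fold changes and p-values) were not used. The members, gene lists, markers and motifs were chosen with earlier results of these data known.

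Values were transformed to log2(normalized count + 1), genes averaging under 5 normalized counts were dropped, and limma 3.58.1 was run in R 4.3.3, with 1 coefficient per population, a trend, two-sided, and Benjamini-Hochberg adjustment over 25549 genes. Folds are ratios of mean normalized counts. Fitted log2 fold changes are differences between means of log2 values. They need not equal the log2 of these folds and can be larger or smaller in size. The added count of 1 pulls those of low genes towards 0. Intervals are 95% intervals from limma. The alternatives were edgeR 4.0.16 and DESeq2 1.42.0 on recovered reads, equal totals, quantile normalization, pseudocounts of 0.5 and 8, other filters, only 2 populations, a replicate block, array weights, each library left out, and replicate 1 left out. Leaving out the 6 libraries with over 50% of olfactory receptor genes detected was added after seeing the data, which makes 28 alternatives. Named genes are the members, up to 3 called genes per list, direction and comparison with the largest log2 fold change, and the 3 genes most like each member (symbols that occur once, without Gm, Rik and clone names), and 1 gene of the fibrinolysis list that this rule gives is not reported here. Exon lengths, coordinates and overlaps came from the GENCODE annotation of GRCm38. In the vascular tone list 38 of 41 symbols were used, because Ece2 occurs on more than 1 row and 2 are alternate names of listed genes, and 6 of 7 lymphatic markers were used. The tests were tested on simulated data first.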

Additional observations from a re-analysis of the deposited data

Results flagged for a closer look

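Of 27 groups of 5 libraries (9 genes in 3 populations), 5 held a library far from the others by Dixon's criterion. This criterion marks about 1 group in 20 where values are normally distributed. It was applied to normalized counts without a log, the groups share the same 15 libraries, and all 5 marks were of a highest library. The rate by chance in these data is therefore not known. Nos3 in TA library 1 was 1804.6 normalized counts, against 469 in the next TA library. Plat in TA library 5 was 13332.4, against 6532 in the next. F3 in EVP library 1 was 7422.44, against 3428 in the next, and this library had the fewest reads (5394356). F8 in EVP library 1 was 259.82, against 20.8 in the next. Tfpi in D library 4 was 2508.39, against 2019 in the next. The EVP to D call of F3 held without EVP library 1. For Nos3 and Plat the marked library is of TA, which enters the EVP to D fit only through the estimated spread. Leaving it out therefore says little about that call. Their calls of EVP versus TA and of TA versus D also held without the marked library. Without single libraries, the log2 fold change of Plat for TA versus D ranged from 0.66 to 1.08. F8 and Tfpi were called in no setting.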

How the results depend on the processing

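Nos3, Vwf, Plat and F3 kept direction and call between EVP and D, and Procr and F3 between TA and D, in all 28 alternatives. F8 rested on 0 to 100 reads a library, and Nos3 in EVP on 3 to 85. Between EVP and D, 4859 genes were called, 7609 with array weights (4120 to 5152 without single libraries), and members called were 6 (5 or 6 without single libraries, 4 without replicate 1 of every population). Between EVP and TA, 893 genes and 3 members were called: 1900 and 5 with DESeq2, 104 and 0 without replicate 1 of every population, 22 and 0 without the 6 libraries rich in olfactory receptor reads, and 429 (without EVP 2) to 1214 (without TA 5) genes and 3 to 5 members (5 without TA 5) without single libraries. At an unadjusted p under 0.05 limma had 5 members and 3933 genes without replicate 1 of every population, and 0 members and 2492 genes without the 6 libraries, where edgeR and DESeq2 were not run. Without EVP 3 the count was 472, and without TA 3 it was 560. Between TA and D, 3199 genes and 5 members were called: 2117 genes with quantile normalization, 5054 with array weights and 3 members with edgeR or without the 6 libraries (2417 to 3501 genes and 4 or 5 members without single libraries, and 3973 genes without replicate 1 of every population). The fits without the 6 libraries kept EVP 3 to 5, TA 4 and 5 and D 2 to 5, and so also rest on fewer libraries. The causes of these moves in the counts were not tested. Among EVP to D calls, 2952 were higher in EVP and 1907 in D, against 1920 and 1983 after quantile normalization, which moved the median of all genes from 0.46 to -0.05 (from 0.24 to -0.10 between TA and D). Among EVP to TA calls the split was 398 higher in EVP and 495 in TA, 237 and 714 at equal totals, and 214 and 449 with edgeR.

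Signs turned only for members that were not called. For EVP versus D, Tfpi was -0.030 at equal totals, -0.029 with array weights, -0.11 without the 6 libraries and -0.013 to 0.17 without single libraries. F8 was -0.0037 at equal totals, -0.61 with quantile normalization, -0.12 with a pseudocount of 8, -0.79 with array weights, -0.15 without replicate 1 of every population, -0.38 without the 6 libraries and -1.0 to 0.74 without single libraries. For EVP versus TA, Procr was -0.11 with edgeR, -0.11 with DESeq2, -0.16 at equal totals and -0.26 to 0.23 without single libraries, Tfpi was -0.053 at equal totals, and F8 was 0.013 with edgeR, 0.086 with DESeq2 and -1.33 to 0.19 without single libraries. For TA versus D, Tfpi was 0.023 at equal totals, 0.066 with quantile normalization and -0.10 to 0.052 without single libraries, and F8 was -0.18 with quantile normalization, -0.18 with array weights and -0.56 to 1.18 without single libraries. The 50 results chosen from the gene lists kept their call in 1249 of 1400 fits, lost it in 151 and turned sign in 0.

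With the replicate block, 5710, 1262 and 4047 genes and 6, 3 and 5 members were called in EVP versus D, EVP versus TA and TA versus D. The labels do not say what the numbers pair. Same-numbered libraries correlated in their deviations by 0.0595 to 0.689 (EVP and D), -0.136 to 0.603 (EVP and TA) and -0.00425 to 0.491 (TA and D), over 0.1 for 4, 4 and 3 of the 5 numbers. The main fit used no block because the paper describes no pairing of the populations. In each pair of populations, 4 of 5 correlated best with their own number, a hint from the data and not from the design. The block changed no count of members called.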

Other observations

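Markers of other cell types were summed in every library, and their part in the values of the 9 genes was not tested. The 10 melanoma markers summed to 30910 to 70752 normalized counts in EVP, 72166 to 183331 in TA and 19323 to 50707 in D, and 9 of 10 were higher in TA than in D (limma, adjusted p under 0.05). The 10 mural markers summed to 5765 to 31122 in EVP, 12975 to 153067 in TA and 14381 to 27108 in D, with 5 of 10 higher in TA than in D. The 8 mast cell markers summed to 324 to 16622.5 in EVP, 4817 to 103701 in TA (highest in library 4) and 2754 to 3761 in D. Of these, 7 of 8 were higher in TA than in D. The 10 keratinocyte markers reached 100947 in TA library 2, and all 10 were higher in TA than in D. Macrophage markers summed to 2305 to 12503 in EVP, 9852 to 44380 in TA and 4892 to 13599 in D. Of these 10, 7 were higher in TA than in EVP and 1 higher in TA than in D. The 6 lymphatic endothelial markers used, among them Mmrn1 of the coagulation list, summed to 8341 to 18798 in EVP and 3026 to 6126 in D, but 3 of the 6 were higher in D and 1 in EVP, with a median log2 fold change of -2.20, and Pdpn had the highest level in EVP. Neutrophil markers were at 4754 at most, in TA library 2.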
